A study of Mus musculus with 2 samples.

Results

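The genes described are 9 transcription factors of limb mesenchyme and tendon, Scx, Mkx, Sox9, Twist1, Twist2, Osr1, Osr2, Meox1 and Meox2, out of 31253 genes listed in the count matrices. They were chosen by name, all 9 were listed in both matrices, and none was used to cluster cells or to name a cell type. Single cells came from the periosteum of femurs and tibias of 8-week-old mice and were sorted for the Prx1-Ai9 label. The control library came from Prx1 Cre; Ai9/+ mice and the Piezo1 fl/fl library from Prx1 Cre; Ai9/+; Piezo1 fl/fl mice, so that both carry the Cre driver and the reporter and only the second carries the floxed alleles of Piezo1, a mechanically gated cation channel. Prx1 (Prrx1) Cre is active in early limb bud mesenchyme, so recombination is not limited to adult periosteum, and the sources used here do not give the number of mice behind each library. There was 1 library per genotype and therefore no replicate. No test was made, a difference between the libraries cannot be told apart from a difference between preparations, and every interval printed covers counting error only.

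Scx (scleraxis) and Mkx (mohawk) are the classical transcription factors of tendon and ligament cells, where they act on collagen and other matrix genes. Scx, Twist1 and Twist2 belong to the basic helix-loop-helix (bHLH) family, whose members pair with E proteins to bind DNA and are restrained by Id proteins. Sox9 is the master factor of cartilage, and progenitors of the tendon attachment site carry Sox9 and Scx together in the embryo. Twist1 and Twist2 hold mesenchymal cells back from differentiation into bone. Osr1 and Osr2 are paired zinc finger factors of connective tissue fibroblasts and joints, and Meox1 and Meox2 are paired homeobox factors of somites and their derivatives that are also used by vascular cells.

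The sequences below show how alike the Twist and the Osr paralogues are at their DNA-binding stretch. Only reads that match both genes of a pair equally could be split between them. They are coding sequence in GENCODE vM21 (GRCm38), 5′ to 3′, with capitals where both sequences of a pair are identical and lower case where they are not. The first pair is from the basic helix-loop-helix stretch in exon 1, at chr12:33958326-33958415 on the plus strand for Twist1 and chr1:91801837-91801926 on the plus strand for Twist2.
Twist1: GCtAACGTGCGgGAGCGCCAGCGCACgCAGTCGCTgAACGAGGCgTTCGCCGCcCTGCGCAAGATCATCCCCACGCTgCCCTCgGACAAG
Twist2: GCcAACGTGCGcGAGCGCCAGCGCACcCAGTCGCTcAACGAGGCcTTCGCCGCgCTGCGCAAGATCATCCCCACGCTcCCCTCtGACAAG
Of these 90 bases, Twist1 and Twist2 shared 82 (91.1%). The next pair is the zinc finger stretch of the Osr genes, spliced from exons 2 and 3 of Osr1 (chr12:9579765-9580550, plus strand) and exons 1 and 2 of Osr2 (chr15:35300927-35301972, plus strand).
Osr1: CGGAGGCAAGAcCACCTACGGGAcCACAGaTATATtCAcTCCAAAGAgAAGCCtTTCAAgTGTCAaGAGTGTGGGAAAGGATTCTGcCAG
Osr2: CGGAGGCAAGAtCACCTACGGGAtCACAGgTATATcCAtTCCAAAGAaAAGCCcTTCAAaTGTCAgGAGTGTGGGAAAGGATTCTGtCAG
The Osr pair shared 80 of 90 bases (88.9%). The longest uninterrupted coding run shared was 23 bases in each of these pairs, so no longer stretch of coding sequence matched both genes exactly.

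The genes lie apart in the genome. In GRCm38, Scx (ENSMUSG00000034161) spans chr15:76457452-76459458, Sox9 chr11:112782224-112787760, Twist1 chr12:33957671-33959829, Twist2 chr1:91801461-91848028, Osr1 chr12:9570116-9581500, Osr2 chr15:35296098-35303305 and Meox2 chr12:37108540-37179534, all on the plus strand. Meox1 spans chr11:101877510-101894374 on the minus strand, and Mkx lies on chromosome 18. Scx lies inside Bop1, a ribosome assembly gene on the opposite strand, but shares no exon base with it. Twist2 shares 1477 exon bases with an antisense gene, Gm29100, that is listed as its own feature. Whether counting used the strand is not given in the sources used here, so reads of that overlap could be counted for either gene.

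Barcodes numbered 6118 in the control and 7469 in the other matrix, with 28030299 and 32337308 UMIs (unique molecular identifiers, each tagging a captured mRNA molecule). Of 4418 and 5084 cells kept, 396 and 523 were blood cells despite the sort, and 4022 and 4561 remained. The libraries shared 50 cell barcodes. Piezo1 itself was at 147 UMIs in control (5.24 per 1000000 UMIs, CPM) and 74 UMIs in Piezo1 fl/fl cells (2.29 CPM), and counts per gene cannot show whether the floxed exons were lost. Cell types were named from marker genes and are called X-like. SSPC-1-like and SSPC-2-like clusters, after the study's names for skeletal stem and progenitor cells, were called so only from lists of 6 markers (Egfl6, Col8a1, Fgf18, Gpha2, Itgbl1 and Cdkn1c) and 7 markers (Tnn, Postn, Prss35, Lrrc15, Mmp13, Pdzrn4 and Aspn). Angptl7, by which the study marks SSPC-1, was among the 10 leading genes of the tendon-like cluster in both libraries and not of the SSPC-1-like cluster, so these names need not match the study's cells. They numbered 811 and 564 in control and 865 and 387 in Piezo1 fl/fl cells. Tendon-like cells were named from Tnmd, Kera, Cilp2, Chad, Ptx4 and Fmod and numbered 212 (5.27% of cells outside blood) and 569 (12.5%).

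The tendon-like clusters of the 2 libraries were not alike in makeup. The fibroblast genes Dpt and Cd34 stood at 49.3 and 165 CPM in the control tendon-like cells and at 835 and 1002 CPM in those of the Piezo1 fl/fl library. Neither gene was in the fibroblast lists used for naming, and those lists differed less. The 6 Pi16 fibroblast markers summed to 902 CPM in the control and 1249 CPM in the Piezo1 fl/fl tendon-like cluster. The 6 Gdf10 fibroblast markers summed to 921 and 1816 CPM. The 6 tendon markers summed to 28697 CPM in the control cluster and 11327 CPM in the Piezo1 fl/fl cluster, and all 6 were above 0 in both. By its sum this list parted the tendon-like from the SSPC-1-like cells in the control library, where the latter had 12813 CPM. It did not do so in the Piezo1 fl/fl library. By the mean log2 excess of markers over other clusters, the tendon-like clusters stood at 6.70 (control) and 5.57 (Piezo1 fl/fl) for tendon. For SSPC-1 they stood at 3.00 and 2.92. In Piezo1 fl/fl SSPC-1-like cells the tendon markers summed to 13625 CPM, above the tendon-like cluster and above their own 6 markers at 6137 CPM. By the mean log2 excess this SSPC-1-like cluster stood at 4.71 for SSPC-1 and 4.50 for tendon. The Piezo1 fl/fl SSPC-2-like cells also carried more of the 7 osteoblast markers, 2891 against 1019 CPM, and no separate osteoblast-like cluster was found there. The part of these differences in the results below was not tested.

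Scx was highest in tendon-like cells of both libraries and extended into both progenitor types. Its control level was 155 CPM in tendon-like cells (95% interval 134 to 179, 192 UMIs), 53.7 CPM in SSPC-1-like cells (47.3 to 60.8, 254 UMIs) and 43.0 CPM in SSPC-2-like cells (37.1 to 49.7, 186 UMIs). Each of these was apart from the next beyond counting error, and below them the levels fell to 4.58 CPM in osteoblast-like cells, 4.49 CPM in fibroblasts named from Pi16, 2.10 CPM in joint lining-like cells and 0.335 CPM in fibroblasts named from Gdf10. Blood cells, which should lack the gene, stood at 2.93 CPM, so the lower levels were not above background. No Scx UMI was found in perineurial-like, chondrocyte-like, mural-like or endothelial-like control cells.

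Where Piezo1 was floxed, Scx had the same order at the top, on a higher level. Tendon-like cells had 589.6 CPM (563 to 617, 1845 UMIs), SSPC-1-like cells 310.3 CPM (293 to 328, 1239 UMIs) and SSPC-2-like cells 204 CPM (187 to 222, 516 UMIs). Chondrocyte-like cells followed at 126 CPM, lining-like cells at 94.9 CPM, and these neighbours were not apart. Pi16 fibroblast-like cells had 44.7 CPM (38.8 to 51.3), but one of the clusters behind this class, of 371 cells, had 67.0 CPM and the other, of 281 cells, 2.54 CPM, against a blood level of 8.17 CPM. Mural-like cells at 12.8 CPM, endothelial-like cells at 5.17 CPM and Gdf10 fibroblast-like cells at 3.93 CPM were not apart from blood. A cluster of 185 cells led by Grem1, a secreted BMP antagonist, stood at 379 CPM (340 to 420), and the control clustering gave no such cluster. Every type found in both libraries had more Scx in the Piezo1 fl/fl library, blood included.

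**Figure D1:**
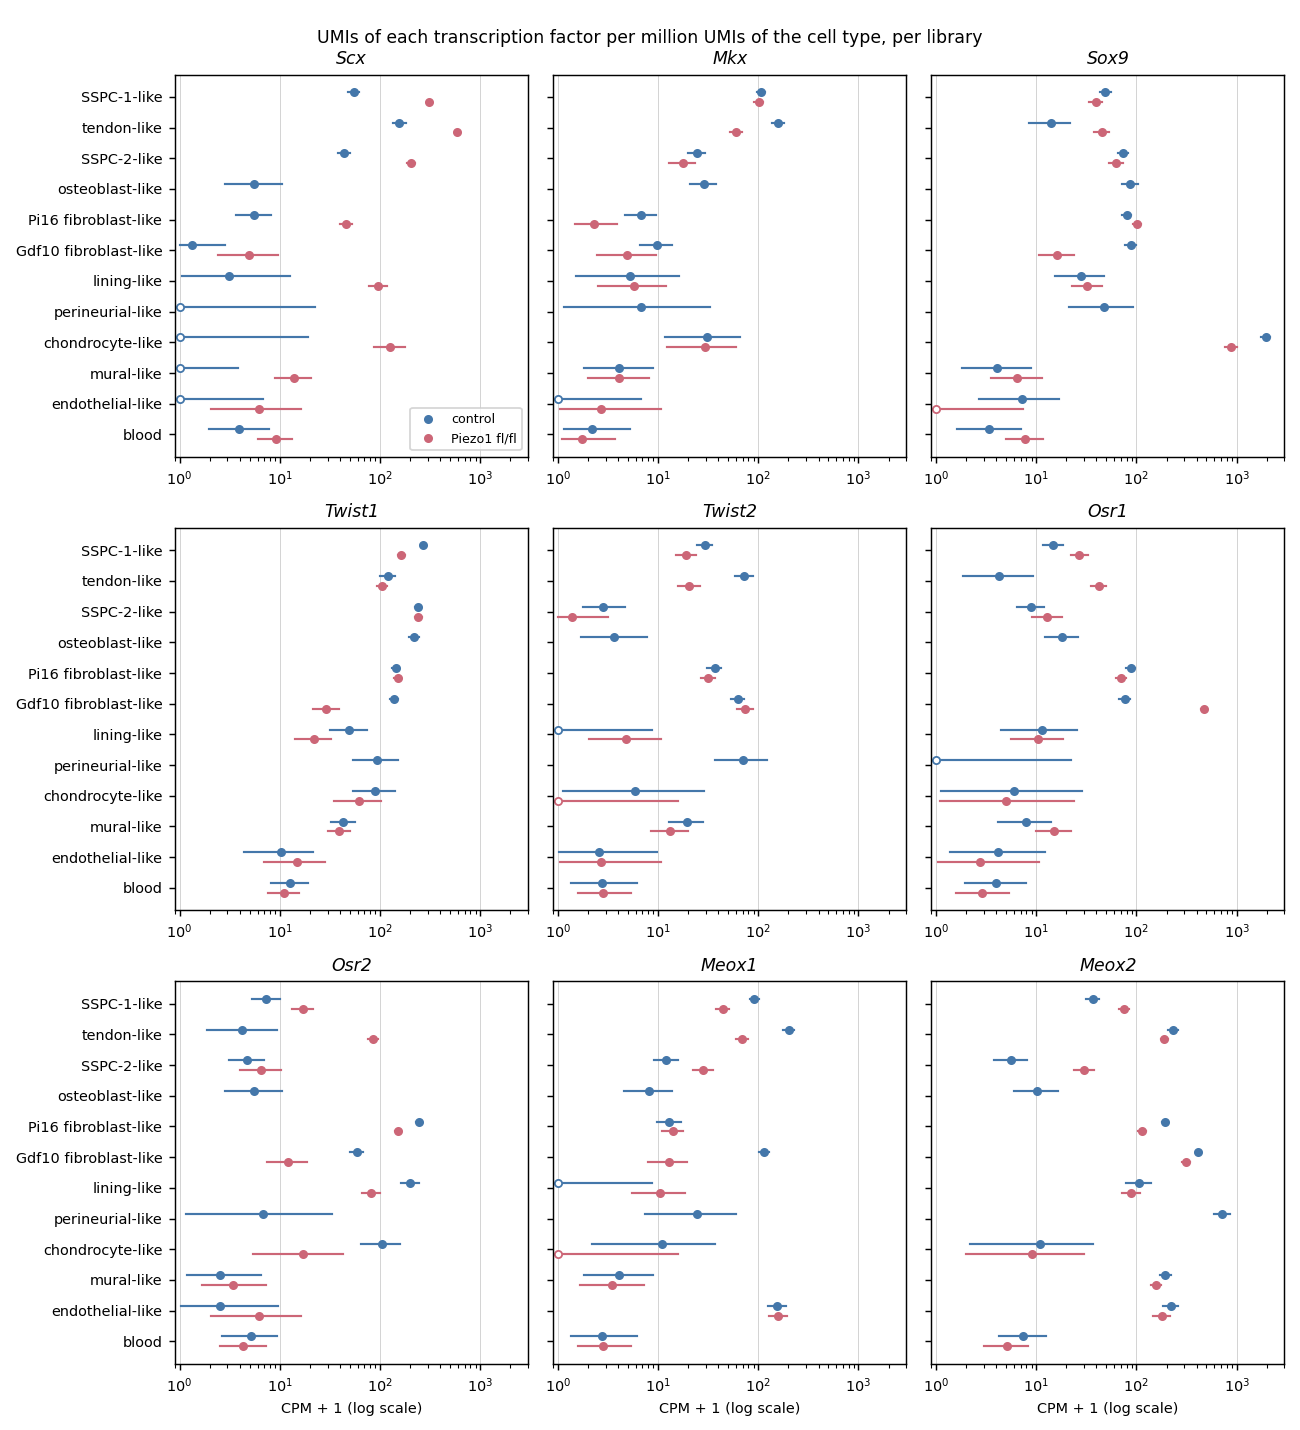
Level of each member (CPM + 1, log axis) in the named cell types of the control and Piezo1 fl/fl libraries, with 95% Poisson intervals and open circles where no UMI was found; 1 library per genotype. Scx reaches 155 CPM in control and 589.6 CPM in Piezo1 fl/fl tendon-like cells, and Sox9 is highest in chondrocyte-like cells of both libraries.

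Mkx was highest in tendon-like and SSPC-1-like cells and lower in SSPC-2-like cells. In the control library it was 157 CPM in tendon-like cells (136 to 181, 194 UMIs) and 106 CPM in SSPC-1-like cells (96.7 to 115, 500 UMIs), against 23.4 CPM in SSPC-2-like cells and 5.74 CPM in Pi16 fibroblast-like cells. The order at the top was turned in the Piezo1 fl/fl library, with 100.2 CPM in SSPC-1-like cells (90.6 to 110, 400 UMIs) and 59.4 CPM in tendon-like cells (51.2 to 68.6, 186 UMIs). Chondrocyte-like cells, at 29.7 and 28.4 CPM, rested on 6 and 7 UMIs. SSPC-1-like cells held 55.3% of all Mkx UMIs outside blood in each library.

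Sox9 was concentrated in the few chondrocyte-like cells, 18 control and 27 Piezo1 fl/fl cells. It stood there at 1948 CPM (1760 to 2150, 394 UMIs) and 876.5 CPM (763 to 1002, 216 UMIs), and 88.9% of chondrocyte-like cells had a Sox9 UMI in each library. Outside cartilage it was lower and spread widely. Control levels of 86.8 CPM in Gdf10 fibroblast-like, 85.7 CPM in osteoblast-like, 79.1 CPM in Pi16 fibroblast-like and 73.1 CPM in SSPC-2-like cells were each not apart from the next in this order, and SSPC-1-like cells followed at 48.0 CPM and tendon-like cells at 12.9 CPM. With floxed Piezo1, Pi16 fibroblast-like cells came next at 99.8 CPM, followed by SSPC-2-like cells at 61.3 CPM, tendon-like cells at 44.1 CPM and SSPC-1-like cells at 38.3 CPM, and the last pair was not apart. A cluster of 19 dividing control cells led by Top2a had 302 CPM of Sox9, but all 55 of its UMIs lay in 5.26% of the cells, which is 1 cell.

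Twist1 was widespread, with a UMI in 48.6% of control and 38.4% of Piezo1 fl/fl cells outside blood. In the control library it was 268 CPM in SSPC-1-like cells (253 to 283), 239 CPM in SSPC-2-like cells (224 to 254) and 217 CPM in osteoblast-like cells, the last 2 not apart, and it was lower in Pi16 fibroblast-like (143 CPM), Gdf10 fibroblast-like (137 CPM) and tendon-like cells (118 CPM). Among the named types SSPC-2-like cells led in the Piezo1 fl/fl library at 241 CPM (222 to 261), near the Grem1-led cluster at 252 CPM (221 to 286) and above SSPC-1-like cells at 162 CPM (150 to 175) and Pi16 fibroblast-like cells at 149 CPM, which were not apart. Blood cells had 11.7 and 10.0 CPM.

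Twist2, for all its likeness to Twist1 in sequence, was at background in SSPC-2-like cells, a type in which Twist1 was at or near its highest. SSPC-2-like cells had 8 Twist2 UMIs in the control (1.85 CPM) and 1 in the Piezo1 fl/fl library (0.396 CPM), near the blood levels of 1.76 and 1.86 CPM. Its control levels were 72.0 CPM in tendon-like (57.8 to 88.6), 69.8 CPM in perineurial-like and 61.6 CPM in Gdf10 fibroblast-like cells, each not apart from the next, then 35.7 CPM in Pi16 fibroblast-like cells and 28.3 CPM in SSPC-1-like cells. Above these named types stood a fibroblast-like cluster of 316 control cells led by the chemokine gene Cxcl13, which was not assigned to a class, at 92.9 CPM (80.0 to 107). Gdf10 fibroblast-like cells led with floxed Piezo1 at 72.7 CPM (59.8 to 87.6), above Pi16 fibroblast-like cells at 30.9 CPM and tendon-like cells at 19.5 CPM (14.9 to 25.04). All fibroblast-like clusters together held 65.0% and 61.6% of Twist2 UMIs.

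Osr1 lay mostly in fibroblast-like cells of both libraries, and Osr2 did so in the control library. These cells held 87.4% of Osr1 UMIs and 89.2% of Osr2 UMIs outside blood in the control library, and 76.4% and 49.4% in the Piezo1 fl/fl library. There a cluster of 315 cells led by the adipocyte gene Cfd held another 28.8% of Osr2, and tendon-like cells 12.9%. The Cfd-led cluster, not counted as fibroblast-like, had the highest Osr2 level of any Piezo1 fl/fl cluster, 285.5 CPM. Within fibroblasts the pair parted. In the control, Osr2 was 244 CPM in Pi16 fibroblast-like cells (229 to 259) against 57.6 CPM in Gdf10 fibroblast-like cells (49.3 to 66.9), whereas Osr1 was 86.8 and 75.7 CPM and not apart. The highest control level of Osr1 was in the Cxcl13-led fibroblast-like cluster, at 225 CPM (204.9 to 247, 451 UMIs), where Osr2 was 162 CPM. In the Piezo1 fl/fl library, Osr1 was 470.5 CPM in Gdf10 fibroblast-like cells (437 to 506) and 69.5 CPM in Pi16 fibroblast-like cells, and Osr2 was 11.1 and 151 CPM in the same order. Lining-like cells, the cells of joint and tendon surfaces, had 199.7 CPM of Osr2 in control and 80.7 CPM in Piezo1 fl/fl cells, and Osr1 there was 10.5 and 9.49 CPM. Tendon-like control cells had 4 UMIs of each gene, 3.23 CPM, at the blood levels of 2.93 and 4.11 CPM.

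Meox1 and Meox2 were shared by tendon-like, fibroblast-like and endothelial-like cells. In the control library Meox1 was 201 CPM in tendon-like (177 to 228), 153 CPM in endothelial-like (124 to 186), 113 CPM in Gdf10 fibroblast-like cells and 90.8 CPM in SSPC-1-like cells, each apart from the next by the interval of the ratio. Endothelial-like cells led in the Piezo1 fl/fl library at 157 CPM (126 to 193), above the Grem1-led cluster at 117 CPM, the Ccl11-led fibroblast-like cluster at 97.5 CPM, tendon-like cells at 67.7 CPM (58.9 to 77.5) and SSPC-1-like cells at 43.6 CPM. Meox2 differed from Meox1 in mural-like cells, the smooth muscle cells and pericytes of vessels. There Meox2 stood at 193 and 156 CPM, whereas Meox1 had 4 UMIs in each library.

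Meox2 was highest in the 33 perineurial-like cells of the control library, at 715.5 CPM (595 to 854, 123 UMIs), with a UMI in 84.8% of them. Perineurial cells sheathe nerve bundles, and no such cluster was found in the other library. Gdf10 fibroblast-like cells followed at 416 CPM in the control and led the Piezo1 fl/fl library at 310.0 CPM. Tendon-like cells (233 and 189 CPM) and endothelial-like cells (220.1 and 179 CPM) were not apart in either library, and SSPC-2-like cells had 4.63 and 29.3 CPM.

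The types were then compared with each other within each library, as ratios of CPM on the log2 scale with intervals in brackets. Between tendon-like and Pi16 fibroblast-like cells, Scx, Mkx and Meox1 were higher in tendon-like cells by more than 2-fold in both libraries. Scx was higher by 5.08 (4.41 to 5.90) in control and 3.72 (3.51 to 3.94) in Piezo1 fl/fl cells, Mkx by 4.75 and 5.39, and Meox1 by 4.06 and 2.36, of which the latter was 0.93 at clustering resolution 1.2. Osr2 lay on the other side, at -6.07 in the control, where it rested on 4 tendon-like UMIs, and at -0.84 with floxed Piezo1. Sox9 was past 2-fold lower in tendon-like cells of both libraries. It stood at 12.9 against 79.1 CPM in control and 44.1 against 99.8 CPM in Piezo1 fl/fl cells. In the control library 4 members were past 2-fold higher and 3 lower, against 7.31% and 14.8% of all genes with at least 20 UMIs. The Piezo1 fl/fl counts were 3 higher and 1 lower, against 6.47% and 8.17% of genes. Beside them, 6 of 8 tendon matrix genes not used for naming were past 2-fold higher in each library, with a median of 4.47 and 3.33 against -0.25 and -0.21 over all genes.

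Between tendon-like and SSPC-1-like cells, both of which carry Scx and Mkx, Meox2 differed the most among members higher in the control, at 2.70 (2.42 to 2.99), followed by Scx at 1.53 (1.25 to 1.81), Twist2 at 1.35 and Meox1 at 1.15. Lower in tendon-like control cells were Osr1 (-1.93), Sox9 (-1.85) and Twist1 at -1.18 (-1.44 to -0.93). That gave 4 members higher and 3 lower against 4.26% and 12.3% of genes. In the Piezo1 fl/fl library Osr2 (2.38) and Meox2 (1.35) were past 2-fold higher and 0 members lower, against 5.33% and 8.12% of genes, and Scx was at 0.93 (0.82 to 1.03). The Piezo1 fl/fl tendon-like cells carried the higher Dpt and Cd34, and among cells without a UMI of either, Osr2 was 28.2 and 18.4 CPM, within 2-fold, and Meox2 189 and 68.5 CPM, the tendon-like value first. The control values of Sox9 and Osr1 turned to 0.21 and 1.91 at clustering resolution 1.2, at which the control tendon-like class held 11.6% of cells.

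Set against the SSPC-2-like type, 4 of 9 members in the control and 5 of 9 in the other library were past 2-fold higher in SSPC-1-like cells. Mkx was higher in SSPC-1-like cells by 2.17 (1.87 to 2.50) in control and 2.58 (2.13 to 3.09) in Piezo1 fl/fl cells, Twist2 by 3.85 and 4.94, the latter against 1 UMI, and Meox2 by 2.92 and 1.34. Meox1 was higher by 3.02 (2.60 to 3.49) in the control and by 0.67 (0.26 to 1.10) in the other library. Scx differed little between these types, 0.32 (0.04 to 0.60) and 0.60 (0.45 to 0.76), and Sox9 was lower in SSPC-1-like cells by less than 2-fold, -0.61 and -0.68. These counts, with 0 lower in either library, stand against 17.7% of genes higher and 5.29% lower in control and 12.8% and 6.79% in Piezo1 fl/fl cells.

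The comparison of genotypes asks how these factors differ where Piezo1 is floxed. Scx was the member with the largest difference in cells outside blood as a whole, from 27.8 CPM (25.7 to 29.9, 660 UMIs) in the control to 169 CPM (164 to 174, 4381 UMIs) in the Piezo1 fl/fl library, 6.10-fold or 2.61 on the log2 scale (2.49 to 2.73). The other 8 members stayed within 2-fold, from -0.50 for Sox9 to 0.51 for Osr1. That is 1 of 9 higher and 0 lower, against 1.68% and 5.58% of genes. Of the 14122 genes measured, 40 (0.283%) had a ratio at or above that of Scx. This sum also moves with the shares of cell types, so the types were compared one by one.

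In SSPC-1-like cells, whose 6 tendon markers summed to 12813 and 13625 CPM in the libraries, Scx was 5.77-fold higher in the Piezo1 fl/fl library, 2.53 on the log2 scale (2.33 to 2.73), and 24 of 11139 genes (0.215%) reached that ratio. Mkx did not follow, at -0.08 (-0.27 to 0.11). Osr2 was higher by 1.32 (0.69 to 2.01, 30 and 64 UMIs) and Meox2 by 1.06 (0.78 to 1.34), while Meox1 was lower at -1.06 (-1.32 to -0.80) and Twist1 at -0.73 (-0.87 to -0.59). The control Osr2 level here, 6.35 CPM, was near that of blood, 4.11 CPM. The count was 3 members higher and 1 lower past 2-fold, against 2.26% and 5.08% of genes. Meox1 moved within 2-fold, to -0.76, when cells were typed by their own markers. The median of the 9 members was -0.08 beside -0.06 over all genes.

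In SSPC-2-like cells Scx was higher by 2.24 (2.00 to 2.50), Meox2 by 2.64 (1.93 to 3.45, 20 and 74 UMIs) and Meox1 by 1.29 (0.74 to 1.86). The control Meox2 level in this type, 4.63 CPM, was not above that of blood, 6.45 CPM. Twist1 stood at 0.01 (-0.13 to 0.16). Of the 8 members with at least 20 UMIs, 3 were past 2-fold higher and 0 lower, against 4.11% and 2.09% of genes. With the control osteoblast-like cells pooled in, since the Piezo1 fl/fl cluster carried osteoblast markers, Scx was at 2.63 (2.39 to 2.88), Meox2 at 2.32 and Meox1 at 1.43, again 3 higher and 0 lower, against 2.6% and 2.8% of genes.

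**Figure D2:**
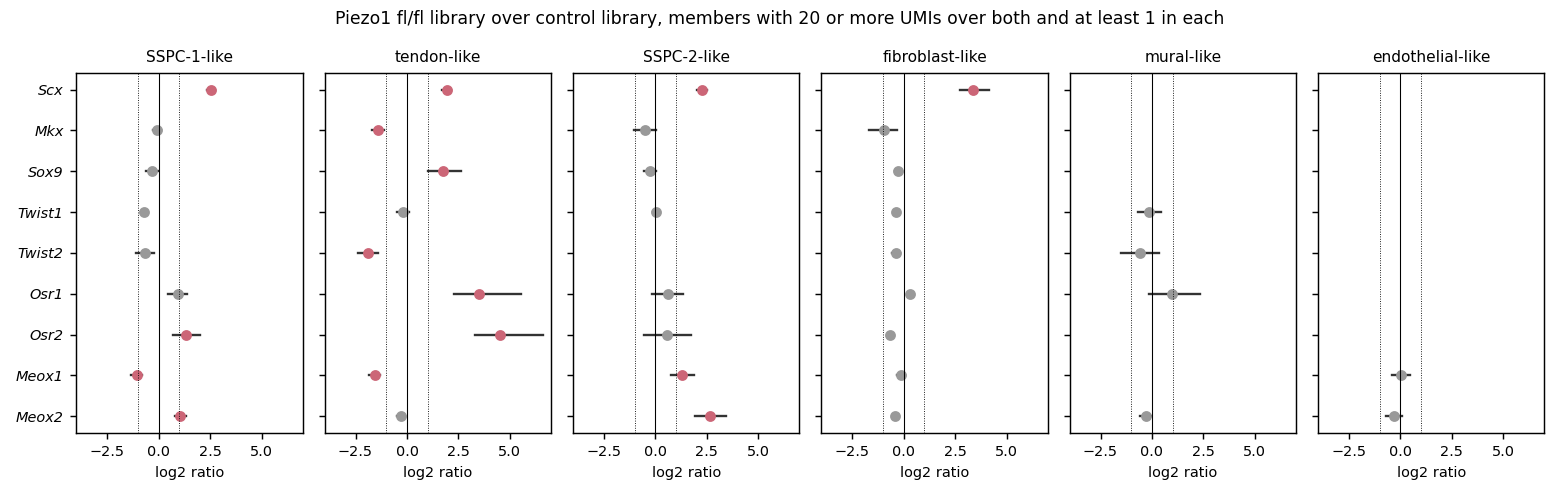
Log2 ratio of CPM, Piezo1 fl/fl over control library, for members with at least 20 UMIs in 6 cell types, with 95% counting intervals; red marks ratios past 2-fold (dotted lines) and grey those within. Scx lies to the right of the dotted line in the SSPC-1-like (2.53), tendon-like (1.92), SSPC-2-like (2.24) and fibroblast-like (3.39) panels.

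Fibroblast-like cells had a higher Scx level too, from a far lower start. Over all fibroblast-like clusters, 1603 and 1584 cells, Scx was 2.22 CPM (20 UMIs) in the control and 23.8 CPM (231 UMIs) in the Piezo1 fl/fl library, a ratio of 3.39 (2.76 to 4.16), and 11 of 11981 genes (0.0918%) reached it. The other 8 members were within 2-fold, from -0.97 for Mkx to 0.32 for Osr1, which made 1 of 9 higher and 0 lower, against 1.44% and 3.02% of genes. The control level was at that of blood, and blood itself had 5 and 22 Scx UMIs, 1.37 (0.04 to 3.24). Pi16 fibroblast-like cells gave 3.28 for Scx (2.62 to 4.10) and -2.04 for Mkx, 1 member higher and 1 lower, against 1.57% and 3.3% of genes. That Scx value rested on the 371-cell cluster at 67.0 CPM, since the other Pi16 cluster had 2.54 CPM, the Ccl11-led cluster 5.78 CPM and the Gdf10 class 3.93 CPM against 8.17 CPM in blood, and 6 of the 652 Pi16 fibroblast-like cells, each with 10 or more UMIs, held 92 of their Scx UMIs (45.1%). In 6 of 8 alternatives Meox1 joined it past 2-fold, at 1.14 to 2.76, while Mkx (23 and 6 UMIs) came within 2-fold.

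The Gdf10 fibroblast-like class was not the same cluster in the libraries, 579 control cells led by Hmcn2 and Ccl11 against 232 cells led by Hhip and Fmo2. It gave Osr1 at 2.63 (2.42 to 2.86) and Meox1 at -3.23, Sox9 at -2.50, Osr2 at -2.33, Twist1 at -2.27 and Mkx at -1.06, that is 1 higher and 5 lower of 8, against 3.85% and 8.72% of genes. The 700 Piezo1 fl/fl cells led by Ccl11, which this class leaves out, had 97.5 CPM of Meox1 and 274 CPM of Meox2, near the control class at 113 and 416 CPM. Over all fibroblast-like cells these genes were within 2-fold, as given above.

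Tendon-like cells differed between the libraries in 7 of 9 members, 4 higher and 3 lower, against 7.06% and 5.48% of genes. Scx was higher by 1.92 (1.71 to 2.15), Sox9 by 1.73 (1.02 to 2.62), Osr1 by 3.50 (4 and 128 UMIs) and Osr2 by 4.53 (4 and 263 UMIs). Mkx was lower at -1.40 (-1.70 to -1.10), Meox1 at -1.57 (-1.84 to -1.30) and Twist2 at -1.88 (-2.38 to -1.40). The tendon markers Tnmd, a membrane glycoprotein of tenocytes, and Kera, a small proteoglycan, were lower too, from 3439 to 1570 CPM and from 2502 to 627 CPM, beside the higher Dpt and Cd34. At clustering resolution 1.2 Sox9, Osr1 and Osr2 turned to -0.36, -0.13 and -0.28, Mkx came to -0.40 and Meox1 to -0.68, while Scx was at 2.96 and Twist2 at -1.28. With 500 to 6000 genes per cell Meox1 was at -0.42 and Twist2 at -1.48.

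Splitting the tendon-like cells by the fibroblast genes separated the members. This split was chosen after seeing the data. Of the control tendon-like cells 55.2% (117 cells) had no Dpt or Cd34 UMI, and of the Piezo1 fl/fl cells 19.3% (110 cells). In these cells Scx was 144 CPM in control and 1585 CPM in Piezo1 fl/fl cells, 3.46 on the log2 scale (3.15 to 3.79), whereas Mkx was 152 and 163 CPM, 0.10 (-0.34 to 0.55), and Tnmd 3641 and 3020 CPM, -0.27. Meox1 was at -0.65 and Twist2 stayed at -1.88, from 62.3 to 16.1 CPM. Past 2-fold higher there too were Sox9 at 1.92 (6 and 19 UMIs) and Osr2 at 2.02 (4 and 14 UMIs), and Osr1 had 0 and 9 UMIs. In the cells with a Dpt or Cd34 UMI the Scx ratio was 1.26, Mkx was -2.02 and Meox1 -1.82. The part of fibroblasts or their free RNA in the latter cells was not tested.

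**Figure D3:**
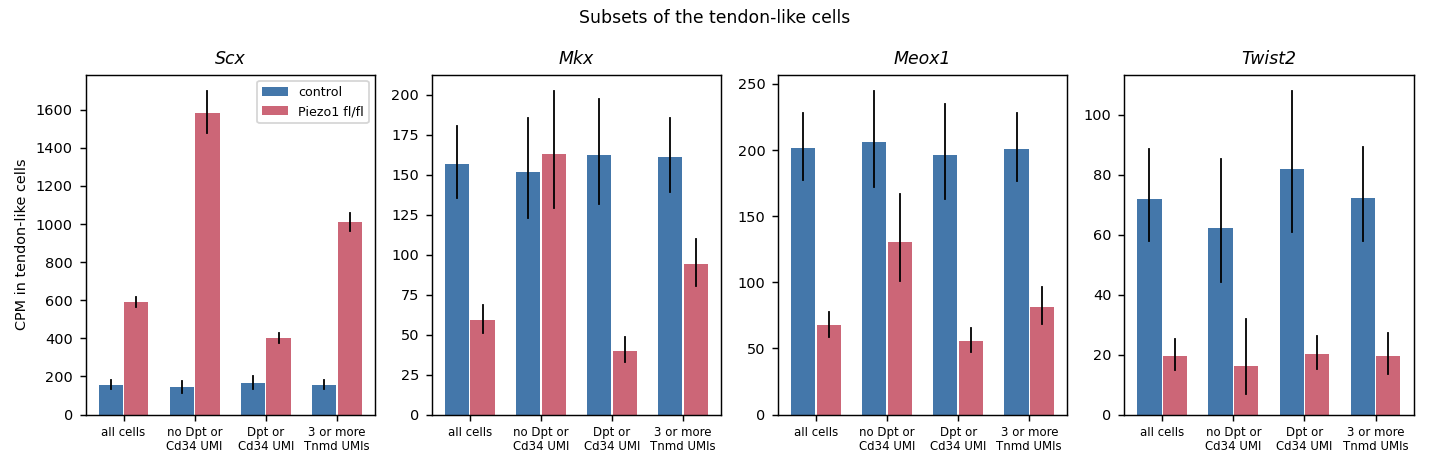
Level (CPM, linear axis from 0) of Scx, Mkx, Meox1 and Twist2 in all tendon-like cells and in subsets without a Dpt or Cd34 UMI, with one, and with at least 3 Tnmd UMIs, for each library with 95% Poisson intervals. Without a Dpt or Cd34 UMI, Scx is 1585 CPM in the Piezo1 fl/fl and 144 CPM in the control library, and Mkx 163 and 152 CPM.

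Because the tendon-like and SSPC-1-like clusters border each other, they were also pooled, an alternative likewise added after seeing the data. Over both, Scx went from 74.8 CPM (446 UMIs) to 433 CPM (3084 UMIs), 2.53 (2.39 to 2.68), while Tnmd, a gene at which Scx is known to act, was level at -0.01 (-0.05 to 0.04). Osr2 was at 2.99 (2.50 to 3.56), Osr1 at 1.49 (1.10 to 1.90) and Meox1 at -1.07 (-1.25 to -0.89). Pooling kept the cells with a Dpt or Cd34 UMI. Of the Piezo1 fl/fl Osr2 UMIs, 263 came from tendon-like cells, 249 of them from cells with a Dpt or Cd34 UMI, and 64 from SSPC-1-like cells. For Osr1 these numbers were 128, 119 and 104. Mkx was within 2-fold at -0.50, as was Twist1 at -0.80. The count was 3 higher and 1 lower, against 3.34% and 5.9% of genes.

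The smaller types gave few values. In lining-like cells Scx had 1 control and 100 Piezo1 fl/fl UMIs, a ratio of 4.92 with a wide interval (2.99 to 10.81), and Osr2 (-1.31) and Twist1 (-1.21) were past 2-fold lower, against 7.74% of genes higher and 2.89% lower. In chondrocyte-like cells Scx had 0 control and 31 Piezo1 fl/fl UMIs, at least 8.48-fold higher when 3 counts are allowed for the 0, Sox9 was lower at -1.15 (-1.40 to -0.91) and Osr2 at -2.54 (21 and 4 UMIs), so that of 4 members measured 1 was higher and 2 lower, against 8.11% higher and 17% lower of the 3045 genes measured in these 18 and 27 cells. In endothelial-like cells the 2 members with 20 UMIs, Meox1 at 0.04 (-0.39 to 0.46) and Meox2 at -0.29 (-0.68 to 0.08), were within 2-fold, against 4.02% of genes higher and 3.27% lower. Mural-like cells had 0 and 21 Scx UMIs, the latter a level not apart from blood, and the other 4 members measured there were within 2-fold, against 1.4% higher and 2.78% lower. In blood cells Scx and Sox9 (4 and 18 UMIs) were past 2-fold higher and 0 members lower, against 6.14% and 2.87% of genes.

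Shares of cells with a UMI depend on depth, so each cell was thinned to 2500 UMIs and shallower cells were left out. Scx was then found in 10.5% of 734 control and 28.8% of 735 Piezo1 fl/fl cells of the SSPC-1-like type. The shares were 23.0% of 187 and 33.7% of 514 for tendon-like cells, and 8.51% of 552 and 26.9% of 364 for SSPC-2-like cells. Without thinning the tendon-like shares were 43.4% and 40.4%, and the SSPC-1-like shares 20.1% and 34.9%, at medians of 4850, 4575, 5212 and 3890 UMIs per cell in that order. Blood cells gave 0.332% and 2.04% after thinning. Pi16 fibroblast-like cells, at 0.943% and 4.42%, were low, and the latter share was above that of blood.

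Cells with many Scx UMIs were more common in the Piezo1 fl/fl library, where the Scx level was also higher. The number of cells past a fixed count rises with the level. The 10% of cells with the most Scx UMIs held 68.1% of them in control and 67.3% in Piezo1 fl/fl SSPC-1-like cells. These shares were 64.5% and 57.4% in SSPC-2-like cells, 49.0% and 72.0% in tendon-like cells, and 100% and 86.3% outside blood. Sparse counts raise such a share. After thinning, cells with at least 3 Scx UMIs were 0.409% of control and 10.1% of Piezo1 fl/fl SSPC-1-like cells, 0.181% and 6.59% of SSPC-2-like cells, and 2.14% and 17.9% of tendon-like cells. Without thinning, 1 of 4022 control cells outside blood had 10 or more Scx UMIs, compared with 97 of 4561 Piezo1 fl/fl cells (2.13%, 1.73% to 2.59%), and these 97 cells held 46.6% of the library's Scx UMIs outside blood. In the Piezo1 fl/fl tendon-like cluster 49 of 569 cells held 68.2% of its Scx UMIs, with up to 80 in a cell, against a highest count of 9 in a control tendon-like cell.

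**Figure D4:**
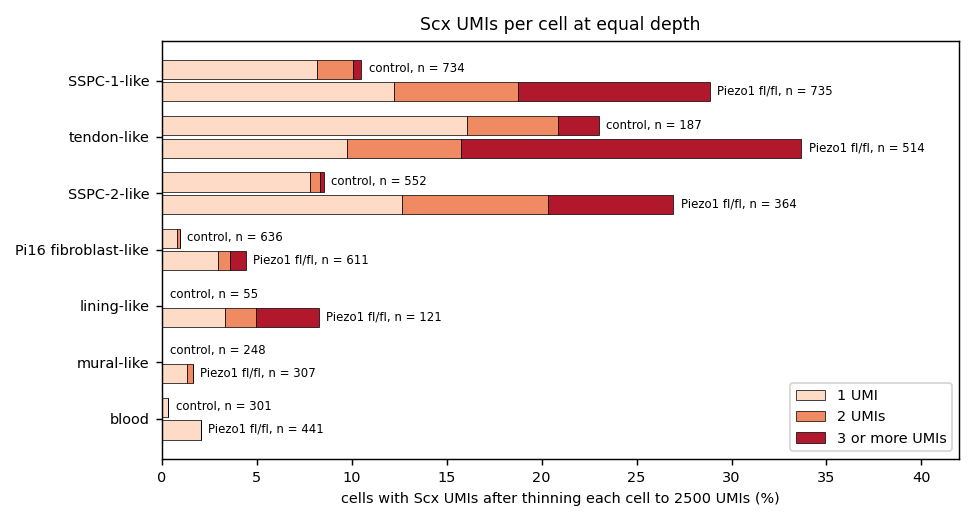
Share of cells (%, thinned to 2500 UMIs) with 1, 2 or at least 3 Scx UMIs in 7 cell types, stacked, for each library. Cells with at least 3 UMIs make up 17.9% of Piezo1 fl/fl and 2.14% of control tendon-like cells.

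Within the Piezo1 fl/fl tendon-like cluster, thinned alike, Scx went with the tendon genes and against the fibroblast gene. It was found in 67.6% of cells with a Mkx UMI and 28.2% of the rest, in 48.6% of cells with a Tnmd UMI and 8.38% of the rest, and in 17.4% of cells with a Dpt UMI and 51.0% of the rest. In the control tendon-like cluster the shares were 31.1% with and 19.0% without a Mkx UMI and, over only 15 cells with a Dpt UMI, 26.7% with and 22.7% without one, and 185 of its 187 cells had a Tnmd UMI. In SSPC-1-like cells Scx and Mkx were found together in 7.35% of Piezo1 fl/fl and 1.63% of control cells. Their separate shares would give 6.12% and 2.27% if they were independent. Scx was in 34.6% of Mkx cells and 27.3% of the rest in the Piezo1 fl/fl library, and in 7.55% and 11.3% in the control. These are sparse counts of cells of 1 library each and are given as a description. Osr1 and Osr2 were found together in 43 of 636 control Pi16 fibroblast-like cells (6.76%), where their separate shares would give 5.87% if they were independent.

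The bHLH partners and inhibitors mostly stayed within 2-fold between the libraries, with exceptions in Pi16 fibroblast-like, Gdf10 fibroblast-like and chondrocyte-like cells. None of the 7 E protein and Id genes, the partners and inhibitors of bHLH factors, was past 2-fold between the genotypes in SSPC-1-like, tendon-like or SSPC-2-like cells or over all cells outside blood, with medians of -0.21, -0.20, 0.04 and -0.18 beside -0.06, -0.01, 0.06 and -0.04 over all genes. In Pi16 fibroblast-like cells 3 of the 7 were past 2-fold lower, against 3.3% of genes, with a median of -0.82 beside -0.06. Among these 3 were the inhibitors Id1 and Id4. In the Gdf10 class 2 of the 7 were lower, the E proteins Tcf4 and Tcf12, against 8.72% of genes. In chondrocyte-like cells 1 of the 5 measured was lower, against 17% of genes. Of 13 other mesenchyme factors measured in SSPC-1-like cells 0 were higher and 2 lower, against 2.26% and 5.08% of genes. The 2 were Eya1 (-1.37), a transcriptional coactivator, and Snai2 (-1.07), a zinc finger repressor. In tendon-like cells 3 of 13 were higher, among them Zeb2 (1.96) and Foxc1 (1.46), and 2 lower, with Six2 at -1.25, against 7.06% and 5.48% of genes. In SSPC-2-like cells 1 of 14 was higher, Foxc2 (1.06), and 0 lower, against 4.11% and 2.09% of genes.

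Among 5 other Sox genes measured in SSPC-1-like cells, 0 were higher and 1 lower, against 2.26% and 5.08% of genes, with a median of -0.53. Of the 8 tendon matrix genes, SSPC-1-like cells had 1 higher and 0 lower, against the same shares, with a median of 0.30. The 1 was Thbs4 (1.45), a thrombospondin of tendon and muscle attachment. In tendon-like cells 1 was higher, Col14a1 (3.14), a fibril-associated collagen, and 4 were lower, including Col11a2 (-3.02) and Tnc (-1.54), with a median of -0.86. Of all genes in that type 7.06% were higher and 5.48% lower. In SSPC-2-like cells 2 were higher, Col11a2 (4.57) and Comp (1.11), the cartilage oligomeric matrix protein, and 0 lower, against 4.11% and 2.09% of genes. Over all cells outside blood 0 of 8 were higher and 2 lower, Col11a1 and Col11a2, against 1.68% and 5.58% of genes, with a median of -0.32.

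The genes whose levels over types were most like each member were ranked by Pearson's r of log2(CPM + 1) over 22 points, 12 control and 10 Piezo1 fl/fl types, among 10660 genes. Points of a library share its cells, depth and clustering, and the coefficients are descriptions. For Mkx these were Rab15 (0.929), Fmod (0.909), a tendon marker used in naming, and Cybrd1 (0.905). For Scx they were Manf (0.725), Mettl1 (0.718) and Rab15 (0.690), over points that include its higher Piezo1 fl/fl level. Within the control and Piezo1 fl/fl types alone, Scx had 0.844 and 0.930 with Rab15. It had 0.700 and 0.755 with Manf, and 0.729 and 0.620 with Mettl1. The genes most like Osr2 were Ugdh (0.945), Uap1 (0.934) and Has1 (0.910), a set that makes hyaluronan precursors and hyaluronan. Sox9 was most like Kif21a, Pabpc4 and Plod2 (0.862 to 0.904), Twist1 like Zfhx4, Mxra8 and Adcy2 (0.865 to 0.889), Twist2 like Aldh1a1, Vgll3 and Galnt17 (0.859 to 0.880), and Osr1 like Slc6a2, Mst1r and Lmx1a (0.823 to 0.862). Meox1 was most like Clmn, Spred2 and Pcdhb20 (0.816 to 0.855), and Meox2 like Naalad2, Plpp3 and Tns2 (0.878 to 0.930). Between members r was highest for Mkx with Twist1 (0.726) and Twist2 with Meox2 (0.648), was 0.591 for Scx with Mkx and 0.316 for Twist1 with Twist2, and was lowest for Sox9 with Meox2 (-0.294).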

How the data were processed

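Prx1-Ai9+ periosteal cells were profiled on the BD Rhapsody whole-transcriptome system in 2 libraries. The authors deposited UMI counts per gene and cell as whole numbers without normalization; per the labels, their tools were fastp, UMI-tools, STAR and Seurat 4.0.3, and the genome build, annotation and strand setting are not given in the sources used here.

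Each library was treated alone. Kept cells had 1000 to 5000 genes and less than 25% of UMIs from mitochondrial genes, and Scrublet in scanpy 1.11.5 (expected rate 0.05) removed 46 (0.829%) and 67 (0.988%) doublets. Genes in fewer than 10 cells were dropped for clustering. Seurat 5.3.0 (R 4.3.3) applied LogNormalize (scale factor 10000), 2000 vst features, 20 principal components and Louvain clustering at resolution 0.8, without the 9 members and the 38 genes of 4 lists, which gave 16 clusters per library. Clusters were named from 21 marker classes, by thresholds set after the clusters were seen. A cluster that missed a threshold on markers detected or on their mean log2 excess is called by a leading gene. So is one whose leading genes or share of markers favoured another class. A gap to the next class below 0.5 also left a cluster unnamed, unless its leading genes favoured the best class. The Piezo1 fl/fl SSPC-1-like cluster was below that gap and was named through its leading genes. By each cell's own markers, 23.9% and 29.8% of cells lay near a cut between classes. The members, lists and markers were chosen with earlier results of these data known. Members were named whatever their values, and of each list the 2 genes with the largest change each way past 2-fold and at least 50 UMIs.

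Levels are UMIs of a gene per 1000000 UMIs of the type (CPM), with exact Poisson intervals, shares have exact binomial (Clopper-Pearson) intervals, and ratios have exact conditional intervals with 0.5 UMI added to both counts for the estimate, all at 95% (scipy 1.17.1, Python 3.11.15). A level of 0 was read against 3 counts. The share of all genes past 2-fold was taken over genes with at least 20 UMIs over both sides. Levels are not scaled by length, so they are compared within a gene and not between genes. Sequences and positions are from GENCODE vM21 (GRCm38), in which 31184 of 31253 identifiers were found. Sequences of the other members are not reported here. Scripts were tested on simulated data. The 12 alternatives set at the start and 4 added after seeing the data are given in the closing section.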

Additional observations from a re-analysis of the deposited data

Results flagged for a closer look

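The ratio between cell types had opposite signs in the libraries for 4 members, each with an interval that left out 0 in both. These differences between libraries were not tested, since there is 1 library per genotype. Mkx in tendon-like over SSPC-1-like cells was 0.57 on the log2 scale in control and -0.75 in Piezo1 fl/fl cells, where the tendon-like cluster carried the higher Dpt and Cd34. Twist2 in tendon-like over Pi16 fibroblast-like cells was 1.02 and -0.66. Osr1 in tendon-like over SSPC-1-like cells was -1.93, resting on 4 tendon-like UMIs, and 0.65. Twist1 was 0.17 and -0.57 for SSPC-1-like set against SSPC-2-like cells.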

How the results depend on the processing

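The Scx ratio between the libraries was above 2-fold under every alternative that gave it, 2.41 to 2.55 (log2) over 7 alternatives in SSPC-1-like, 1.91 to 3.65 over 12 in tendon-like, 2.10 to 2.71 over 10 in SSPC-2-like and 2.58 to 4.27 over 8 in Pi16 fibroblast-like cells. Of all member ratios between the libraries, 261 alternative values stayed, 64 moved beyond the counting interval and 8 turned, and of ratios between types 346 stayed, 91 moved and 4 turned. Every ratio counted as turned was one of tendon-like cells. Some other ratios between the libraries lay on both sides of 0 over the alternatives without being counted as turned. Among them were Meox2 in tendon-like cells (-0.49 to 0.70, -0.30 in the main setting) and Meox1 in Pi16 fibroblast-like cells (-0.36 to 2.76). Twist1 in SSPC-2-like cells (-0.13 to 0.05) was another. With 500 to 6000 genes per cell, tendon-like ratios between libraries were 0.19 for Mkx, -0.68 for Sox9, -0.34 for Osr1 and -0.52 for Osr2, and at resolution 1.2 they were -0.36 for Sox9, -0.13 for Osr1 and -0.28 for Osr2. Mkx was 0.10 in tendon-like cells without a Dpt or Cd34 UMI. Tendon-like over SSPC-1-like control ratios turned to 0.21 (resolution 1.2) and 0.19 (500 to 6000 genes) for Sox9 and to 1.91 and 1.93 for Osr1. Counts past 2-fold in tendon-like cells fell from 4 higher and 3 lower to 1 and 1 under both settings. In Pi16 fibroblast-like cells they went from 1 higher and 1 lower to 2 and 0 at resolution 1.2, 500 to 6000 genes, a mitochondrial limit of 10%, no doublet removal, members and lists kept as features, and cells typed by their own markers. SSPC-1-like cells had 0 lower, from 1, by own markers.

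Between types, tendon-like over Pi16 fibroblast-like members past 2-fold lower went from 3 to 1 in the control (resolution 1.2 and 500 to 6000 genes), and from 1 to 0 (resolution 1.2), 2 (500 to 6000 genes) and 3 (own markers) in the Piezo1 fl/fl library. Tendon-like over SSPC-1-like control counts went from 4 to 2 higher (own markers) and from 3 to 0 lower (resolutions 0.4 and 1.2, 500 to 6000 genes), and SSPC-1-like over SSPC-2-like from 0 to 1 lower by own markers in each library. With 500 to 6000 genes 5 of 9 members kept their highest control type. The control tendon-like share of 5.27% became 6.51% (resolution 0.4), 11.6% (1.2), 12.3% (500 to 6000 genes) and 6.999% (own markers), and the Piezo1 fl/fl share of 12.5% became 8.52% (500 to 6000 genes) and 7.69% (own markers). SSPC-1-like shares of 20.2% and 19.0% became 18.7% and 20.6% with 500 to 6000 genes, 20.2% in the Piezo1 fl/fl library at the 10% mitochondrial limit, and 7.92% and 7.999% by own markers. The cause was not tested. No paired analysis was possible because there was 1 library per genotype, and leaving out a replicate was likewise not possible.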
